A study of Mus musculus with 32 samples.

Results

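The diet by fasting interaction in livers without Fatp2 asks whether 24 h against 4 h of fasting changed a transcript differently on a ketogenic diet (KD) than on its control diet (CD). It was taken as the change with fasting on KD minus the change with fasting on CD, on the log2 scale, in 16 of the 32 libraries of the series. All mice were C57BL/6 males of 16 weeks that had eaten their diet since 12 weeks of age, and each library came from the whole liver of 1 animal. The 16 mice were labelled Fatp2-/- (KO), a disruption whose allele the labels do not describe, with 4 on CD fasted for 4 h, 4 on CD fasted for 24 h, 4 on KD fasted for 4 h and 4 on KD fasted for 24 h. The other 16 libraries are wild-type (WT) livers in the same 4 conditions, and the KO interaction was compared with theirs. Livers fasted for 4 h are called short-fasted and those fasted for 24 h long-fasted, and values by liver are in the order of replicates 1 to 4. An interaction above 0 means that a transcript moved up more, or down less, with the longer fast on KD than on CD.

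Fatp2, encoded by Slc27a2, carries long-chain fatty acids into hepatocytes and activates very long-chain ones. The liver makes cholesterol from acetyl-CoA through mevalonate, farnesyl diphosphate, squalene and lanosterol, and it makes fatty acids from the same acetyl-CoA. In textbook accounts the genes of both routes are switched on by the SREBP transcription factors after feeding, when insulin is high or membranes hold little sterol, and fall silent in fasting. Bile acid synthesis, which starts with Cyp7a1, is the main way in which cholesterol is broken down.

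Total counts in the KO libraries ranged from 14359718 to 24700310. Slc27a2 was at 121 to 318 CPM (counts per normalised library, multiplied up to a common scale) in the 16 KO livers and at 905 to 2229 CPM in the 16 WT livers, so it was lower in every KO library but not at 0. Its means in KO were 183 ± 41 CPM in short-fasted CD, 295 ± 15.4 in long-fasted CD, 265 ± 46.1 in short-fasted KD and 263 ± 18.1 in long-fasted KD (SD, n = 4 each), and its interaction of -0.70 (SE 0.26) did not pass in the KO livers (edgeR adjusted p = 0.178). All 9 hepatocyte markers in the table were detected in every KO library, and their summed level was 72776 to 81095 CPM in short-fasted CD, 38876 to 82305 in long-fasted CD, 34340 to 59895 in short-fasted KD and 56035 to 65926 in long-fasted KD. None of the 9 passed in the interaction, against 1.39% of all genes, and their median was 0.60 against -0.04 over all genes. The share of counts on mitochondrially encoded genes was 5.22 to 5.63% in short-fasted CD and 6.46 to 15.5% in long-fasted CD. It was 4.86 to 12.4% in short-fasted KD and 10.3 to 13.4% in long-fasted KD, and its part in the results was not tested. In whole tissue, fewer cells of a type and less RNA per cell cannot be told apart.

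Some KO libraries stood apart in ways their labels do not give. On 68 genes that differed between KD and CD in the same direction at both times in WT livers, each KO library was placed between the WT CD mean (0) and the WT KD mean (1) of its own fasting time. The KO CD 24 h libraries were at 0.323, 0.325, 0.624 and 1.06 in replicates 1 to 4, and the KO KD 24 h libraries at 1.01, 1.00, 1.03 and 0.553. The library labelled KO CD 24 h replicate 4 thus sat with the KD livers, and that labelled KO KD 24 h replicate 4 lay below its 3 group members. The KO KD 4 h libraries were at 0.494, 0.662, 0.83 and 0.764, so the 0.553 of KO KD 24 h replicate 4 lay within their range. KO CD 24 h replicate 3, at 0.624, lay within it too. Separately, 3 libraries held skeletal muscle transcripts: 12 muscle markers summed to 304 CPM in replicate 1 and 685 CPM in replicate 2 of KO CD 24 h, and to 608 CPM in replicate 4 of KO KD 4 h, against 0.708 to 3.78 CPM in the other 13. Calls of named genes that end without either set of libraries, or without 1 library, are marked as such.

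**Figure D1:**
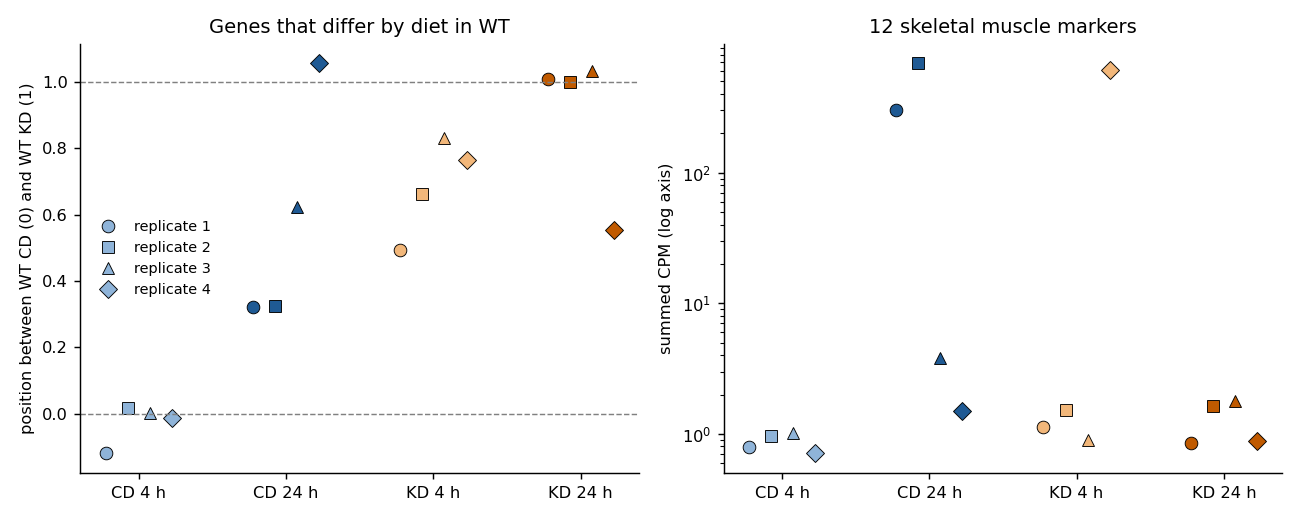
Each point is 1 KO liver. The left panel gives its position between WT livers on CD (0) and on KD (1) over 68 genes, and the right panel the summed CPM of 12 skeletal muscle markers on a log axis. KO CD 24 h replicate 4 is at 1.06 and KO KD 24 h replicate 4 at 0.553, and 3 libraries are above 300 CPM of muscle transcripts while the other 13 are below 4.

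Of 14438 genes tested, 201 passed at an adjusted p under 0.05 in the KO interaction, which is 1.39%. The interaction was above 0 for 114 genes (0.79%) and below 0 for 87 (0.603%), and 2168 genes had an unadjusted p under 0.05. By group means, 91 of the 114 were lower after the long fast on CD and higher after it on KD, 22 were lower on both diets and 1 was higher on both. After the short fast all 114 had a lower group mean on KD than on CD, and after the long fast 102 of them had a higher one on KD. Of the 87 genes below 0, 80 were higher after the long fast on CD and lower after it on KD. However, 47 of the 87 were highest in the 3 libraries holding muscle transcripts, which belong to long-fasted CD and short-fasted KD. A transcript high only in these libraries has group means of this pattern by arithmetic, and why these transcripts were high there was not tested. The patterns also go by sign alone, however small the change: that of Cyp7a1 on KD was -0.016 on the log2 scale. With upper quartile normalization in place of TMM, 93 genes were above 0 and 118 below, and the median over all genes was then -0.12 in place of -0.04.

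**Figure D2:**
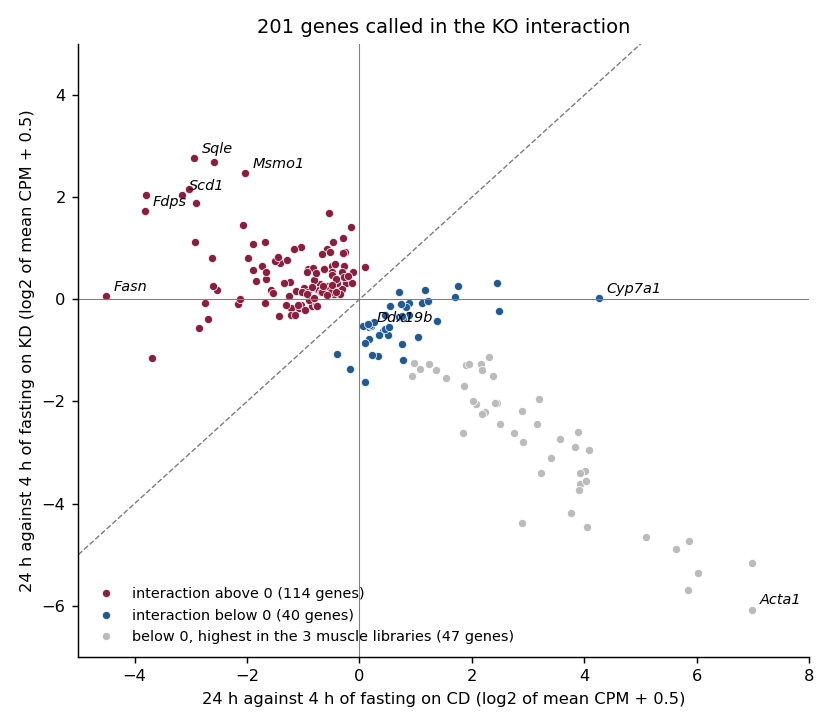
Each point is 1 of the 201 genes that passed, placed by its log2 change from 4 to 24 h of fasting on CD (horizontal) and on KD (vertical), from group mean CPM with 0.5 added. The vertical distance from the dashed line is the interaction of these means, which differs from the fitted one where groups are near 0 CPM. The fitted interaction is above 0 for 114 genes, and 47 of the 87 below 0 (grey) were highest in the 3 libraries holding muscle transcripts.

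The genes of cholesterol synthesis and uptake had more calls than any other list: 20 of the 25 passed, all 20 above 0, against 0.79% of all genes tested. Each of the 25 had an interaction above 0, and their median was 2.30 on the log2 scale against -0.04 over all genes. Among the 5 that missed the threshold were Srebf2, which encodes SREBP-2 (1.50, adjusted p = 0.0552), Mvk (1.93, 0.0528) and Tm7sf2 (1.80, 0.0744). No regulatory sequence is read from these data, but 14 of the 20 that passed have a promoter in RefSeq (GRCm38.p6). The 14 genes passed in the same direction, and 3 of their promoters are shown as chosen examples, which need not stand for the rest. Each runs from 250 bases before the start of transcription to 50 after it, 5′ to 3′ on the gene's strand, and capitals mark CCAAT on either strand (ATTGG on the other), CACGTG on either strand and TCACNCCAC on either strand. The Hmgcs1 promoter lies at chr13:119690101-119690400 (plus strand), that of Cyp51 at chr5:4104648-4104947 (minus strand) and that of Nsdhl at chrX:72918271-72918570 (plus strand).
Hmgcs1: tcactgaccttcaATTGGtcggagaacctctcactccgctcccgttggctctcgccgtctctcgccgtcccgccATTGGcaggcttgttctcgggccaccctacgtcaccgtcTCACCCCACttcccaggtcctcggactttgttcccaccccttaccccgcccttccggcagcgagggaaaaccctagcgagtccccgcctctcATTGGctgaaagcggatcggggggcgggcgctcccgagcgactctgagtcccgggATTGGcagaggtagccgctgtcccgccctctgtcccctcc
Cyp51: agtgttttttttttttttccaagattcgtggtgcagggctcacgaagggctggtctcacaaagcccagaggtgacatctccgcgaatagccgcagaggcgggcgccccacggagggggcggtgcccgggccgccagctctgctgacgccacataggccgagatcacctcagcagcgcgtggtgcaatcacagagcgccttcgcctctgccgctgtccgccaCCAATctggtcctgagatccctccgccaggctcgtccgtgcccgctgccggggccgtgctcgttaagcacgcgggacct
Nsdhl: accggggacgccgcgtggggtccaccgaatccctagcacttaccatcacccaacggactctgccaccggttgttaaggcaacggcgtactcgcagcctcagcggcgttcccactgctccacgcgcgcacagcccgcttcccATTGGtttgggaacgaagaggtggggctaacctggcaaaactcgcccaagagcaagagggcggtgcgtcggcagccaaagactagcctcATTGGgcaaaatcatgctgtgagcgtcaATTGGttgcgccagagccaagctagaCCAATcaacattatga

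Searched on both strands, CCAAT was present in the promoters of 13 of those 14 genes (92.9%) and of 41.1% of all 27025 genes with a promoter of this length. The E-box CACGTG was present in 4 of the 14 (28.6%) and 8.09% of all genes, and the sterol regulatory element core TCACNCCAC in 1 of the 14, Hmgcs1 (7.14%), and 1.44% of all genes. No match of one motif overlapped a match of another in these 14 genes. A match describes the letters of the window and no more.

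At the head of the pathway, Hmgcs1, which condenses acetyl units into HMG-CoA, was at 255, 135, 148 and 349 CPM in short-fasted CD, 55.1, 53.2, 49.4 and 51.5 in long-fasted CD, 97.5, 78.2, 61.7 and 58.4 in short-fasted KD and 119, 340, 287 and 67.4 in long-fasted KD. The 4 short-fasted CD livers were thus above every long-fasted CD liver and every KD liver at 4 h, and 3 of the 4 long-fasted KD livers were above those groups too. Its interaction was 3.54 (SE 0.61, edgeR adjusted p = 0.00266). Acat2, which joins acetyl-CoA units, had 1.77 (SE 0.29) with means of 67 ± 17.1, 22.2 ± 4.09, 29.5 ± 2.70 and 33.5 ± 6.87 CPM in short-fasted CD, long-fasted CD, short-fasted KD and long-fasted KD (SD, n = 4).

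In the mevalonate and isoprenoid steps, Fdps, which makes farnesyl diphosphate, had the smallest p of all genes. It was at 166, 154, 70.7 and 258 CPM in short-fasted CD, 11.5, 13.9, 10.7 and 8.28 in long-fasted CD, 18.9, 18.7, 24.6 and 17.1 in short-fasted KD and 29.6, 126, 101 and 9.43 in long-fasted KD. The first 3 groups did not overlap, while the last was spread widely, with replicates 2 and 3 among the short-fasted CD values and replicate 4 among the long-fasted CD values. The interaction of Fdps was 5.62 (SE 0.84, edgeR adjusted p = 0.00229). Mvd, the decarboxylase before it, had 5.93 (SE 1.03), Idi1, the isomerase, 5.48 (SE 0.97) and Pmvk, a kinase of the same branch, 2.22 (SE 0.40), and all 3 passed.

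In the squalene and lanosterol steps, Sqle, the epoxidase that commits squalene to sterols, was at 26.5, 13.9, 7.04 and 64.4 CPM in short-fasted CD, 3.01, 4.77, 3.53 and 1.55 in long-fasted CD, 4.18, 3.02, 3.88 and 2.46 in short-fasted KD and 9.69, 46.5, 44.4 and 2.85 in long-fasted KD, with an interaction of 6.05 (SE 1.04). Cyp51, the lanosterol demethylase, was at 88.1, 70.6, 43.2 and 123 CPM in short-fasted CD, 12, 13.2, 9.02 and 7.59 in long-fasted CD, 22.1, 17.9, 25.2 and 11.3 in short-fasted KD and 39.1, 135, 101 and 14.4 in long-fasted KD. In both genes every CD 4 h liver was above every CD 24 h and KD 4 h liver, and KO KD 24 h replicate 4 was the lowest of its group. Cyp51 had an interaction of 4.88 (SE 0.76, edgeR adjusted p = 0.00229). Msmo1, which removes a methyl group from the sterol ring, reached 287 and 221 CPM in replicates 2 and 3 of long-fasted KD, above its highest short-fasted CD value of 90.2, and had an interaction of 4.56 (SE 0.78).

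The remaining steps had interactions from 0.82 to 4.19. Nsdhl, a sterol dehydrogenase, had an interaction of 4.19 (SE 0.68), Dhcr7, the final reductase, 3.03 (SE 0.52), Lss, lanosterol synthase, 2.30 (SE 0.50), Sc5d, a sterol desaturase, 2.07 (SE 0.34), Fdft1, squalene synthase, 1.62 (SE 0.39), Hsd17b7 1.58 (SE 0.39) and Ebp, a sterol isomerase, 0.82 (SE 0.21), and all 7 passed. Hsd17b7 (adjusted p = 0.0705) and Ebp (0.209) missed the threshold without the 2 libraries apart by diet genes, and Fdft1 (0.0736) and Lss (0.0524) without the 3 muscle libraries. With 1 KO library left out, the call ended in 14 of 16 fits for Ebp, 8 for Hsd17b7 and 7 for Fdft1, and for Lss in the fits without KO KD 4 h replicate 4 or KO KD 24 h replicate 2, with an edgeR adjusted p of at most 0.155 among these 4 genes. Sc5d was at 507, 388, 306 and 621 CPM in short-fasted CD, 178, 152, 134 and 108 in long-fasted CD, 141, 200, 201 and 119 in short-fasted KD and 172, 241, 256 and 199 in long-fasted KD. All 4 long-fasted KD livers were thus below the lowest short-fasted CD liver for Sc5d, unlike for Fdps or Sqle.

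Among the regulators, Insig1, which holds SREBP in the endoplasmic reticulum, was at 306, 212, 141 and 510 CPM in short-fasted CD, 51.5, 31.4, 49.7 and 56.4 in long-fasted CD, 80.8, 132, 117 and 94.9 in short-fasted KD and 140, 310, 249 and 47.6 in long-fasted KD (interaction 3.44, SE 0.59). In the long-fasted KD group 2 livers had Insig1 levels within the range of short-fasted CD livers, and replicate 4 was the lowest of the 4. Stard4, a sterol carrier, had 2.16 (SE 0.50, adjusted p = 0.0263), but missed the threshold without the 3 muscle libraries (0.0675) and in 5 of the 16 fits without 1 KO library. Of the 18 cholesterol genes named here as passing, the other 13 passed without either set and in each of those 16 fits.

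**Figure D3:**
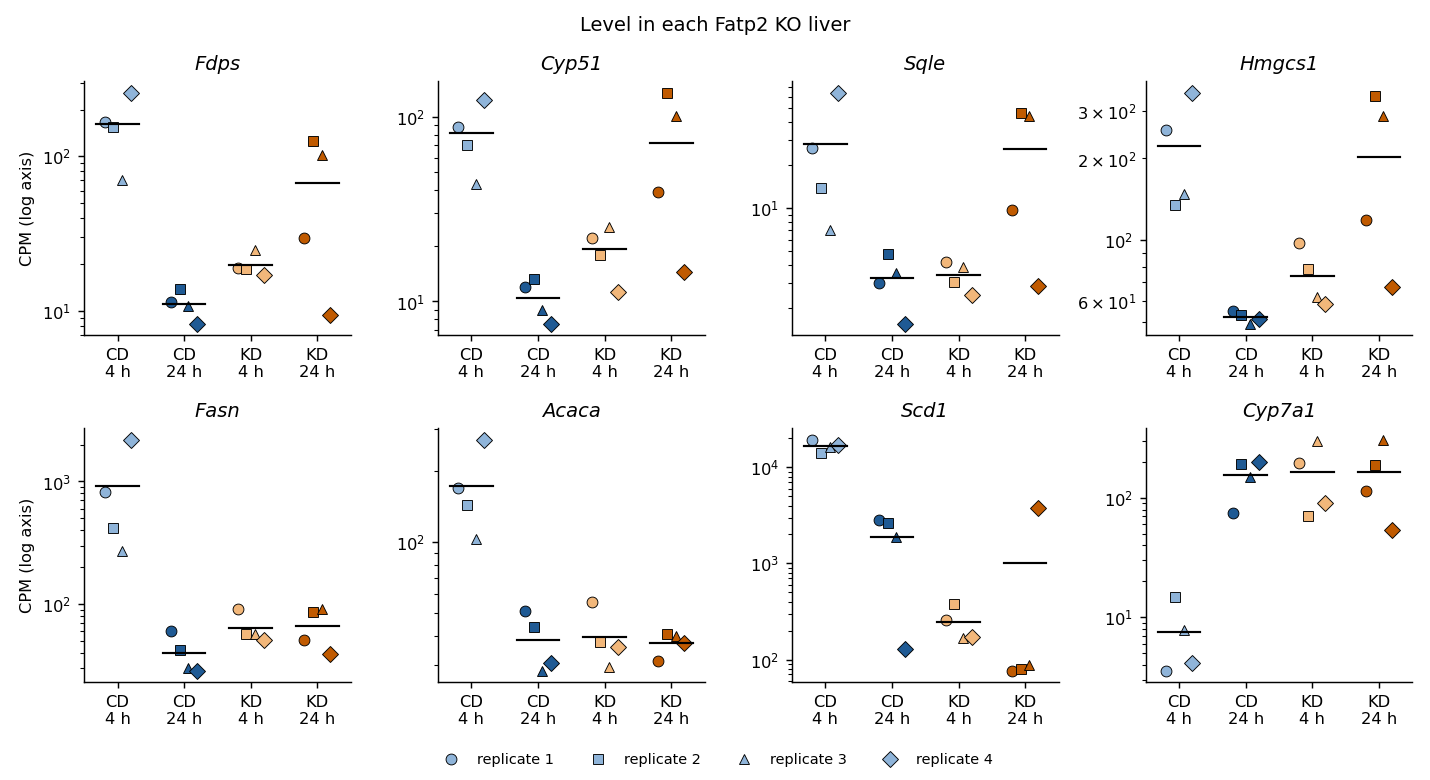
Each panel gives the CPM of 1 gene in the 16 KO livers on a log axis, with 1 marker shape per replicate number, which only names a liver, and a bar at the group mean. Fdps, Cyp51, Sqle and Hmgcs1 are high in 4 CD 4 h livers and in replicates 2 and 3 of KD 24 h, Fasn and Acaca are high in short-fasted CD only, and Cyp7a1 is low in short-fasted CD only.

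Without the 2 libraries that stood apart by diet genes, 96 genes passed (0.656%), of which 87 were among the 201, and 19 of the 25 cholesterol genes passed with a list median of 2.56. Without the 3 libraries holding muscle transcripts, 272 genes passed (1.83%), 100 of them among the 201, and again 19 of the 25 with a median of 2.26. In that fit KO CD 24 h keeps only replicates 3 and 4, the latter apart by diet genes. Without both sets, KO CD 24 h keeps 1 library, which is assumed to vary like the other groups. No gene then passed in edgeR, although 1593 genes had an unadjusted p under 0.05, all 25 cholesterol genes stayed above 0 with a median of 2.57, and Fdps was at 5.96 (SE 1.28, adjusted p = 0.0937).

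Of the 20 lipogenesis genes, 10 passed, all above 0, against 0.79% of all genes tested. They were Fasn, Acaca, Acly, Acss2, Slc25a1, Me1, Elovl5, Elovl6, Fads1 and Scd1. Leaving out Pnpla5, which had no read in 12 of the 16 KO libraries, 18 of 19 were above 0 and their median was 1.98. Fasn, fatty acid synthase, was at 824, 418, 270 and 2190 CPM in short-fasted CD, 60.1, 42.2, 30.0 and 28.7 in long-fasted CD, 92.0, 57.0, 57.6 and 50.6 in short-fasted KD and 51.1, 86.7, 91.3 and 39.0 in long-fasted KD. The 4 short-fasted CD livers were above the other 12, which overlapped one another, so that the interaction of 4.58 (SE 0.76, edgeR adjusted p = 0.00229) came with a level that stayed low on KD at both times. Acaca, acetyl-CoA carboxylase, showed the same with means of 172 ± 71.5, 38.3 ± 10.6, 39.6 ± 11.2 and 37.2 ± 4.26 CPM in short-fasted CD, long-fasted CD, short-fasted KD and long-fasted KD (SD, n = 4) and an interaction of 2.08 (SE 0.40).

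Among enzymes that supply or lengthen fatty acids, Acly, which supplies cytosolic acetyl-CoA from citrate, had an interaction of 2.69 (SE 0.54), Acss2, which makes acetyl-CoA from acetate, 2.21 (SE 0.46), the citrate carrier Slc25a1 1.21 (SE 0.22) and malic enzyme Me1 1.66 (SE 0.40), and all 4 passed. Me1 missed the threshold without the 2 libraries apart by diet genes (edgeR adjusted p = 0.0726), without the 3 muscle libraries (0.0868) and in 8 of the 16 fits without 1 KO library. Among elongases and desaturases, Elovl5 had 2.05 (SE 0.39) and Elovl6 2.32 (SE 0.53). Fads1, a desaturase of polyunsaturated fatty acids, was at 810, 653, 508 and 593 CPM in short-fasted CD, 286, 254, 163 and 66.5 in long-fasted CD, 140, 136, 165 and 102 in short-fasted KD and 170, 216, 201 and 264 in long-fasted KD, with an interaction of 2.38 (SE 0.42). Its CD 4 h livers were above all others, and KO CD 24 h replicate 4 was below every KD liver.

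Scd1, the main hepatic stearoyl-CoA desaturase, was at 19400, 13940, 16400 and 17190 CPM in short-fasted CD, 2815, 2659, 1890 and 130 in long-fasted CD, 257, 383, 166 and 170 in short-fasted KD and 76.5, 79.5, 87.7 and 3766 in long-fasted KD. The library labelled KO KD 24 h replicate 4 was thus at the level of long-fasted CD livers and the library labelled KO CD 24 h replicate 4 at that of KD livers. The interaction was 5.20 (SE 1.34, edgeR adjusted p = 0.0453) with all libraries, 1.57 (SE 0.89, adjusted p = 0.469) without KO KD 24 h replicate 4 and 1.17 (SE 0.74, adjusted p = 0.649) without both of these libraries. Its call also ended without the 3 muscle libraries (adjusted p = 0.0714) and in 12 of the 16 fits without 1 KO library. Elovl6 missed the threshold without KO KD 24 h replicate 4 (1.88, SE 0.51, adjusted p = 0.0801), in 3 more of these fits and without the 2 libraries apart by diet genes (0.159). The other 7 lipogenesis genes that passed did so without either set and in each of the 16 fits. The lipogenic regulators did not pass: Srebf1, which encodes SREBP-1, had an interaction of 0.94 (SE 0.48, adjusted p = 0.356) and Mlxipl, which encodes the carbohydrate-responsive factor ChREBP, -0.83 (SE 0.37, adjusted p = 0.282).

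**Figure D4:**
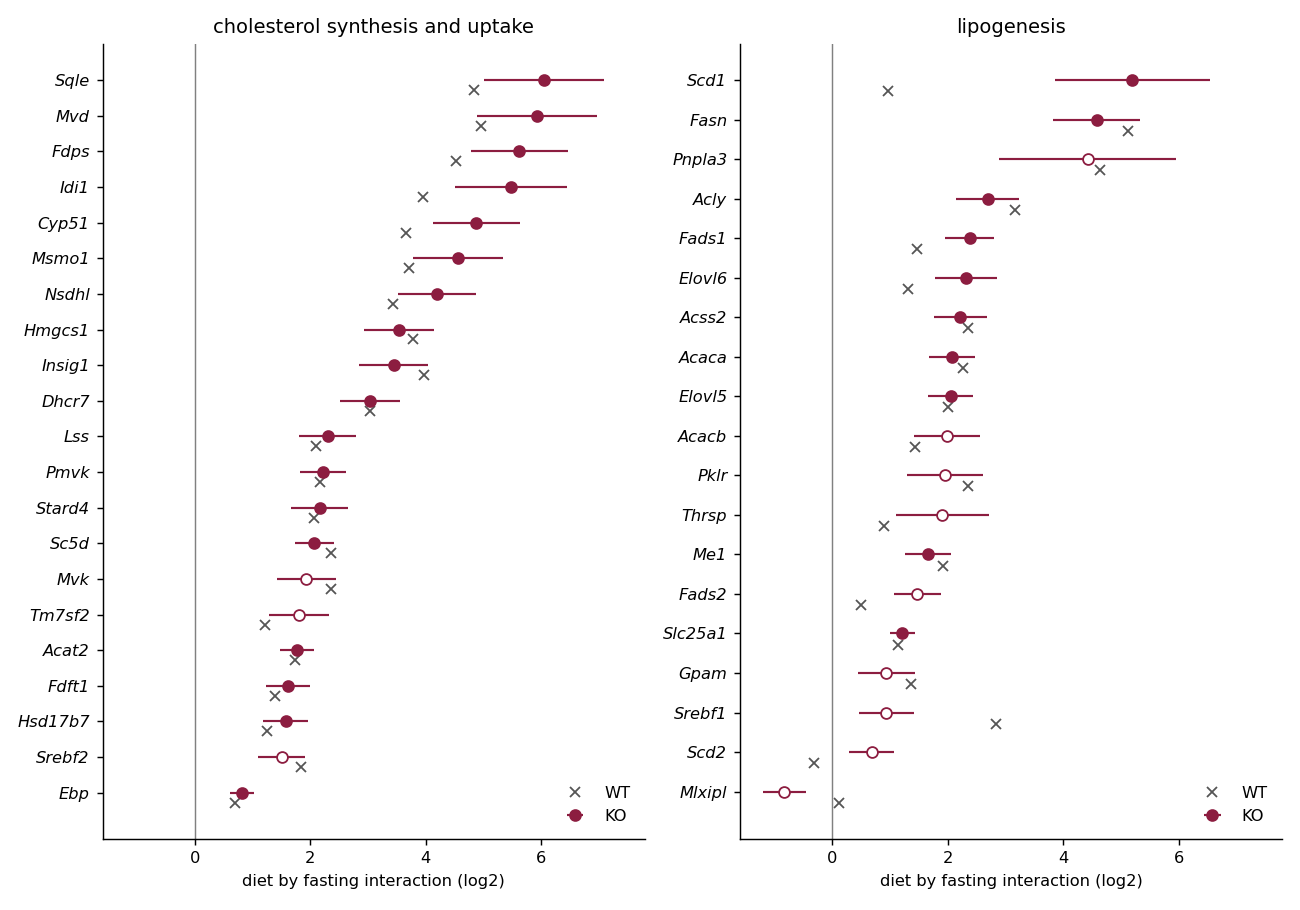
Interaction of each gene shown in KO (circles, log2 with bars of 1 SE, filled where the adjusted p is under 0.05) and in WT (crosses). All 21 cholesterol genes shown lie above 0 in KO, from 0.82 to 6.05, and 18 of the 19 lipogenesis genes shown do.

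Genes outside both routes also passed above 0, and those of smallest p are given first. Rdh11, a retinol dehydrogenase, had an interaction of 2.86 (SE 0.47), Camk1d, a calmodulin-dependent kinase, 2.09 (SE 0.35) and Ropn1l, known from sperm flagella, 1.66 (SE 0.28). Camk1d was at 85.2 to 101 CPM in short-fasted CD, 19.2 to 70.4 in long-fasted CD, 13.1 to 18.7 in short-fasted KD and 26.6 to 41.7 in long-fasted KD, so no KD liver reached a short-fasted CD liver. In fatty acid uptake and activation 2 of 16 genes passed, both above 0 as 0.79% of all genes were, the acyl-CoA synthetase Acsl3 (2.197, SE 0.41) and the fatty acid binding protein Fabp5 (2.66, SE 0.69). In glucose use and glycogen 2 of 17 passed above 0, against the same 0.79%, Ugp2, which makes UDP-glucose for glycogen (0.92, SE 0.20), and the fructose kinase Khk (1.08, SE 0.27). Of 21 conjugation genes 1 passed, above 0 and again against 0.79%, the glutathione transferase Gstm2 (1.49, SE 0.36). Acsl3 passed in all 16 fits without 1 KO library, as did Ugp2, whose adjusted p was 0.0654 without the 2 libraries apart by diet genes. The call ended in 14 of the 16 fits for Fabp5, in 10 for Gstm2 and in 9 for Khk. Without the 2 libraries the edgeR adjusted p was 0.124 for Fabp5 and 0.172 for Gstm2, and without the 3 muscle libraries 0.125 for Fabp5 and 0.151 for Khk.

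Further genes above 0 were singled out after their values were seen. Pgd and Tkt of the pentose phosphate pathway had interactions of 1.67 (SE 0.29) and 1.32 (SE 0.29), and Idh1, the cytosolic isocitrate dehydrogenase, 0.88 (SE 0.22). Cyb5r3, the reductase of cytochrome b5, and Cyb5b, a cytochrome b5 of the outer mitochondrial membrane, had 1.61 (SE 0.31) and 1.09 (SE 0.21). Sec61a1, the channel through which proteins enter the endoplasmic reticulum, had 1.17 (SE 0.28), Ssr1 0.81 (SE 0.16) and Ddost, of the oligosaccharyl transferase, 0.96 (SE 0.22). Aqp8, a water channel, was at 105 to 187 CPM in short-fasted CD and at 11.4 to 42.9 in the other 12 livers (2.31, SE 0.52). All 9 had an adjusted p under 0.05 in edgeR. Pgd, Cyb5r3, Cyb5b and Ssr1 also passed without either set of libraries and in each of the 16 fits without 1 KO library, and Tkt in all but the fit without KO KD 4 h replicate 4 (adjusted p = 0.0649). The call ended in 12 of the 16 fits for Idh1, in 8 for Sec61a1, in 5 for Ddost and in 3 for Aqp8. Without the 2 libraries apart by diet genes the adjusted p was 0.0506 for Idh1 and Aqp8, 0.0968 for Sec61a1 and 0.0964 for Ddost, and without the 3 muscle libraries it was 0.0764 for Idh1.

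Genes of fat burning did not pass in the KO interaction. None of 25 PPARα targets, 19 mitochondrial and 19 peroxisomal β-oxidation genes or 10 ketone body genes was called in edgeR, with medians of -0.13, 0.05, 0.04 and 0.14. Over all genes tested 1.39% were called, and at that share a list of this size may well hold no call. Cpt1a, which admits fatty acids to mitochondria, had 0.05 (SE 0.35). A miss does not show that fasting acted alike on both diets for these genes. Gluconeogenesis (0 of 14, median 0.78), ER folding (0 of 18, 0.89), acute phase (0 of 23, 0.71), periportal markers (0 of 11, 0.69) and male-biased liver genes (0 of 18, 0.70) had medians above 0.5 without a call. In these lists the smallest p belonged to Fbp1 (0.89, adjusted p = 0.0717), Canx (0.79, 0.0865), Fgg (1.04, 0.118) and Elovl3 (2.19, 0.0896). Core clock genes had no call among 19 and a median of -0.12.

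Of the 87 genes below 0, 40 did not have the 3 libraries holding muscle transcripts on top. Among them was Cyp7a1, whose enzyme sets the pace of bile acid production, the one of 17 bile acid genes called, where 0.603% of all genes passed below 0. It was at 3.57, 14.7, 7.81 and 4.11 CPM in short-fasted CD, 74.6, 192, 151 and 201 in long-fasted CD, 195, 70.1, 301 and 91.2 in short-fasted KD and 115, 188, 308 and 53.7 in long-fasted KD. Only the short-fasted CD livers were low, and the other 3 groups overlapped, with means of 154 ± 57.4, 164 ± 106 and 166 ± 109 CPM (SD, n = 4). The interaction of Cyp7a1 was -4.34 (SE 0.84, edgeR adjusted p = 0.0074). Ddx19b, an RNA helicase of messenger export, was at 28.9 to 30.8 CPM in short-fasted KD, above the 19.1 to 27.5 CPM of the other 12 livers (-0.73, SE 0.14, adjusted p = 0.00764).

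Of the 12 named genes of smallest p below 0, the other 10 are known from skeletal or heart muscle. Of the 87 genes below 0, 47 (54%) had the 3 libraries holding muscle transcripts as their 3 highest of the 16 KO libraries, against 0 of the 114 above 0 and 1.06% of all genes tested. Acta1, skeletal muscle actin, reached 78.4 CPM and 178 CPM in the 2 such libraries of KO CD 24 h and 162 CPM in that of KO KD 4 h, and was at no more than 0.504 CPM in the other 13. Ttn, titin, was at 57.3, 72.6 and 92.6 CPM in those 3 and at no more than 0.996 CPM elsewhere, and Cox6a2, Tnnt3, Atp2a1, Mybpc1, Tnni2, Mb and Fabp3 had the same 3 libraries on top. Without KO KD 4 h replicate 4 the calls of these genes and of Acta1 ended, with an edgeR adjusted p of 0.225 for Ttn. That of Mb also ended without KO CD 4 h replicate 1. Without all 3 libraries Ttn did not pass (edgeR adjusted p = 0.55), and the rest of these genes were not tested. Of the 11 muscle markers tested 6 passed, all below 0, against 0.603% of all genes tested. Their fitted fold changes are not given because whole groups were at or near 0. Without these 3 libraries 65 genes passed below 0, and the 12 of smallest p held no muscle gene. They were led by Nmrk1, which makes NAD from nicotinamide riboside (-1.95, SE 0.34, edgeR adjusted p = 0.00459), C1galt1, a glycosyltransferase (-1.20, SE 0.21, adjusted p = 0.00459), and Cyp7a1 (-4.72, SE 0.91, adjusted p = 0.0097). With all libraries Nmrk1 had -1.40 and did not pass (edgeR adjusted p = 0.069). In long-fasted CD it was at 19.1 and 15.0 CPM in the replicates left out. In the replicates kept, 3 and 4, it was at 40.2 and 55.9 CPM, and replicate 4 is the library that sat with the KD livers.

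No other cell type list had a call in edgeR, where 1.39% of all genes tested were called. Among these lists the counts were 0 of 12 for Kupffer cells and macrophages (median 0.09), 0 of 11 for sinusoidal endothelium (-0.14), 0 of 11 for stellate cells and fibroblasts (0.16), 0 of 7 for cholangiocytes (0.05) and 0 of 10 for lymphocytes (0.01).

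The WT livers gave the same interaction with more calls: 1856 genes passed (12.9%). Of the 201 KO genes 121 passed in WT in the same direction, which is 60.2% of the KO list and 6.52% of the WT list, and 0 passed in the opposite direction. Leaving out the 47 genes led by the muscle libraries, 121 of 154 (78.6%) were shared. Among cholesterol genes 24 of 25 passed in WT with a median of 2.37, and among lipogenesis genes 10 of 20 with a median of 1.69. This lipogenesis median includes Pnpla5, and with it the KO median was 2.02 in place of 1.98. The difference itself was tested for each gene as the KO interaction minus the WT interaction, and no cholesterol or lipogenesis gene passed. For Fdps it was 1.10 (SE 1.12, edgeR adjusted p = 0.85), for Fasn -0.54 (SE 1.02, adjusted p = 0.929) and for Cyp7a1 -0.34 (SE 1.14, adjusted p = 0.963). With errors of this size, equal interactions in KO and WT are not shown.

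In that difference 18 genes passed (0.125%), 15 above 0 (0.104%) and 3 below 0 (0.0208%), and 1208 had an unadjusted p under 0.05. None of the 18 was among the 201: they had an interaction in WT and a smaller one, not past the threshold, in KO. Cyp4a14, a fatty acid hydroxylase and PPARα target, was at 61.9, 19.4, 7.06 and 31.7 CPM in WT CD 4 h livers, 4633, 10510, 7905 and 6453 in WT CD 24 h, 323, 383, 297 and 459 in WT KD 4 h and 2968, 2396, 4165 and 2815 in WT KD 24 h. In KO it was at 2708, 2735, 3919 and 1633 CPM in short-fasted CD, 10680, 10500, 5530 and 4809 in long-fasted CD, 5378, 2793, 2049 and 1902 in short-fasted KD and 6290, 6079, 6011 and 10180 in long-fasted KD. The short-fasted livers of both diets were thus far apart in WT and overlapped in KO. The interaction of Cyp4a14 was -4.86 (SE 0.62) in WT and -0.28 (SE 0.59) in KO, a difference of 4.58 (SE 0.85, edgeR adjusted p = 0.0241). It missed the threshold without the 2 libraries apart by diet genes (0.0625) and in 6 of the 32 fits without 1 library. Its reads may be shared with near-identical Cyp4a copies, so its counts are uncertain.

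Alas1, the first enzyme of heme synthesis, was at 49.3 to 77.8 CPM in WT CD 4 h livers, 441 to 625 in WT CD 24 h, 323 to 845 in WT KD 4 h and 192 to 386 in WT KD 24 h. In KO its group means were 231, 394, 319 and 324 CPM in the same order, and the ranges overlapped. The difference was 3.34 (SE 0.70, edgeR adjusted p = 0.0431), and its call ended without the 2 libraries apart by diet genes (0.0908) and in 20 of the 32 fits without 1 library. Osbpl3, an oxysterol-binding relative, had an interaction of -5.77 (SE 0.58) in WT and -1.13 (SE 0.50) in KO. Krt23, a keratin, had -4.89 (SE 0.59) and -0.29 (SE 0.45), and its KO livers were at 9.90 to 46.8 CPM against 0.922 to 11.3 in WT. Tmtc2 had -2.10 (SE 0.24) in WT and -0.06 (SE 0.23) in KO.

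Of lipid genes, Fitm2, which buds lipid droplets, had an interaction of -1.79 (SE 0.27) in WT and 0.02 (SE 0.26) in KO. Nceh1, a cholesteryl ester hydrolase, had -1.70 (SE 0.23) and -0.05 (SE 0.23). Abhd6, a monoacylglycerol lipase, had -1.85 (SE 0.22) and -0.31 (SE 0.22), and the carboxylesterase Ces1d -2.00 (SE 0.37) and 0.49 (SE 0.37). Nampt, which salvages nicotinamide for NAD, was highest in WT KD 4 h livers at 149 CPM and had -1.98 (SE 0.21) in WT against -0.51 (SE 0.21) in KO. Slc35f2, P2ry1 and Fmo2 also passed above 0, with differences of 2.90, 2.05 and 2.85. Hn1l and Atp8b1, a phospholipid flippase, passed below 0 with differences of -1.47 and -1.31. These directions held without either set of libraries that stood apart and without both, but the number of the 18 that passed was 7 without the 2 libraries apart by diet genes, 10 without the 3 muscle libraries and 3 without both. Osbpl3, Krt23 and Tmtc2 passed without either set and in each of the 32 fits without 1 library, and Slc35f2 in each of those fits and without the 2 libraries but not without the 3 (edgeR adjusted p = 0.0569). Nampt, P2ry1 and Atp8b1 passed without the 2 libraries and not without the 3, and Cyp4a14, Alas1, Fitm2, Abhd6 and Hn1l the reverse. Nceh1, Ces1d and Fmo2 passed in neither. With 1 of the 32 libraries left out, the call of these 11 genes ended in 6 (Cyp4a14) to 22 (Ces1d) fits.

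**Figure D5:**
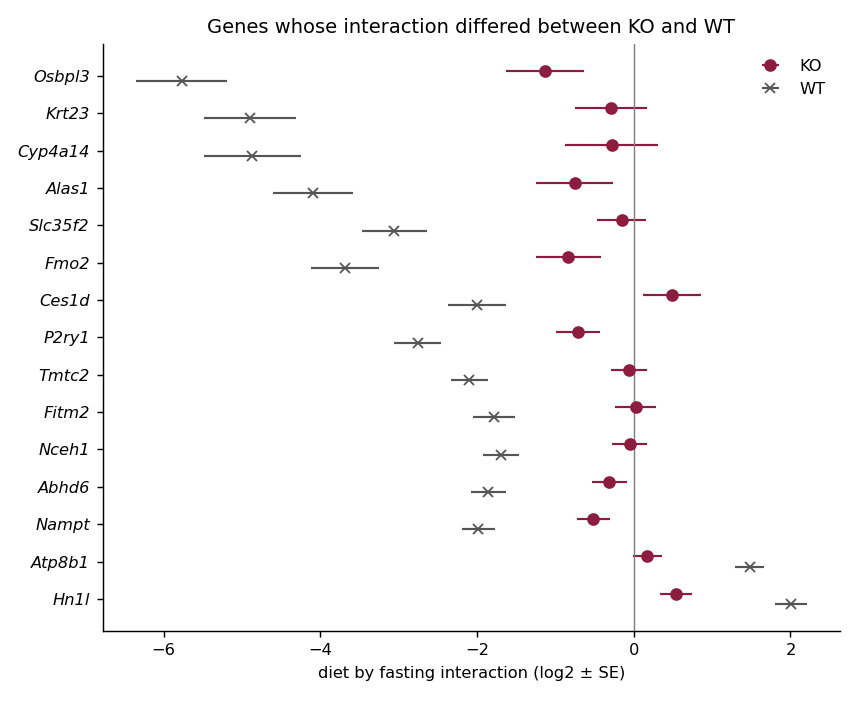
Diet by fasting interaction (log2, bars of 1 SE) in KO (circles) and WT (crosses) for 15 of the 18 genes that passed in the difference. The KO values lie between -1.13 and 0.54 and the WT values between -5.77 and -1.70 or, for Atp8b1 and Hn1l, at 1.48 and 2.01.

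PPARα targets as a list had 11 of 25 called below 0 in WT, against 5.26% of all genes, with a median of -1.02, and 1 of 25, Cyp4a14, called in the difference, against 0.104% of all genes above 0, with a median difference of 1.00. Acot1, an acyl-CoA thioesterase, had an interaction of -4.12 in WT and -0.82 in KO (difference 3.31, SE 0.73), and the difference did not pass. ER folding genes had 14 of 18 called above 0 in WT, against 7.6% of all genes, with a median of 1.53, and none called in the difference.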

How the data were processed

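Messenger RNA was sequenced from both ends from whole liver of 32 mice, 4 in each of 8 groups. The authors deposited read counts per gene, which were used here, and FPKM values, which were not. Per the submitters' processing notes, the tools were HTSeq 0.6.1 for counting and TopHat2 2.0.12 with Bowtie2 2.2.3 for alignment to GRCm38. Whether counting used strand is not given in the sources used here, and reads of overlapping antisense genes therefore cannot be told apart.

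Counts of all 32 libraries were fitted with edgeR 4.0.16 (R 4.3.3; filterByExpr, TMM, quasi-likelihood F test, a mean per group), with 24 residual degrees of freedom. Tests were two-sided, p values were adjusted by Benjamini-Hochberg over all 14438 genes tested, and genes passed under 0.05. The SE is the log2 interaction divided by the square root of F. CPM uses normalised library sizes, and 3 counts correspond to 0.122 to 0.219 CPM in the KO libraries, counting error only. In the 24 pairs of KO replicates chi-square per degree of freedom was 7.55 to 215, above sampling noise in every pair.

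The contrast, the gene lists and markers were chosen with earlier results of these data known. Named genes had an official symbol and reached a group mean of 5 CPM or more: the 12 of smallest p per direction in the KO interaction, 6 per direction in the difference from WT, Slc27a2, and the 3 of smallest p in each list with a call or a median beyond 0.5; other members of the cholesterol, lipogenesis and PPARα lists and other genes were named after their values were seen. Some genes are counted in the lists but not reported here by name or value. Alternatives were DESeq2 1.42.0, limma 3.58.1 voom with quality weights, other scalings and filters, only the KO libraries, and libraries left out.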

Additional observations from a re-analysis of the deposited data

Results flagged for a closer look

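The 15 genes named above for the difference between KO and WT had interactions that a direct test separated, at an edgeR adjusted p under 0.05. The KO interaction minus the WT interaction was 4.64 for Osbpl3, 4.60 for Krt23, 4.58 for Cyp4a14, 3.34 for Alas1, 2.90 for Slc35f2, 2.85 for Fmo2 and 2.49 for Ces1d on the log2 scale. It was 2.05 for P2ry1, 2.04 for Tmtc2, 1.81 for Fitm2, 1.64 for Nceh1, 1.54 for Abhd6 and 1.47 for Nampt. It was -1.47 for Hn1l and -1.31 for Atp8b1.

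In 246 sets of 4 KO livers, 1 named gene in 1 group, a single liver was far from the other 3 in 23. Chance gives about 12.3 if sets are independent and values normal. These sets share livers, and many genes were named for a small p in the same data, so nothing is concluded from the excess. Of the 23, 9 were in KO KD 4 h replicate 4, all of them genes known from muscle. There Acta1 was at 162 CPM, Mb at 101, Ttn at 92.6, Tnnt3 at 89.6, Tnni2 at 58.2, Atp2a1 at 57.9, Fabp3 at 35.8, Cox6a2 at 15.3 and Mybpc1 at 14.3, while the 3 others were at 0 to 0.474 CPM for each. The library labelled KO KD 24 h replicate 4 was highest of its group for Cyp4a14 at 10180 CPM against 6011 to 6290, for Hspa5 at 546 against 371 to 383, for Canx at 288 against 225 to 234 and for Cyp17a1, a steroid hydroxylase, at 143 against 16.6 to 28.4. The library labelled KO CD 24 h replicate 4 was lowest for Hpx, hemopexin, at 1154 CPM against 2221 to 2381.

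In KO CD 4 h, replicate 4 was lowest for Slc27a2 at 121 CPM against 198 to 207, for Elovl3 at 342 against 461 to 478 and for Nceh1 at 35.7 against 49.7 to 50.3, and highest for Atp8b1 at 67.1 against 45.7 to 48.8 and for Atp2a1 at 0.189 against 0.0814 to 0.0959. Pdia3 was highest in replicate 2 of that group at 485 CPM against 379 to 391. In KO KD 4 h, Fasn was highest in replicate 1 at 92.0 CPM against 50.6 to 57.6, Fabp5 in replicate 3 at 14.9 against 7.37 to 8.51, and Fmo2 was lowest in replicate 2 at 6.38 against 11.8 to 12.2.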

How the results depend on the processing

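The 201 genes of the KO interaction became 117 with only the 16 KO libraries, 451 in DESeq2 and 471 in limma voom with quality weights. They became 96 without the 2 libraries that stood apart by diet genes and 0 without both sets of libraries, where 1593 genes had an unadjusted edgeR p under 0.05. Leaving out 1 KO library at a time gave 51 (KO KD 4 h replicate 4, which held muscle transcripts) to 383 genes (KO CD 24 h replicate 1). Called cholesterol genes ranged from 14 to 24 and called lipogenesis genes from 7 to 12 over the same fits, which were added after seeing the data. The 18 genes of the difference from WT became 29 with upper quartile normalization, 76 in DESeq2, 60 in limma voom and 31 with no low count filter. They became 8 without the 2 libraries apart by diet genes, 10 without the 3 libraries holding muscle transcripts, 3 without both and 4 to 42 with 1 library left out. The interactions of Tnnt3 and Fabp3 turned above 0 without both sets of libraries, at 0.38 (adjusted p = 0.984) and 0.33 (adjusted p = 0.981), where their 3 high libraries are absent. The cause of these changes and of the others was not tested. Fdps, Cyp51, Fasn and Cyp7a1 passed in 25 of 26 alternatives, all but the fit without both sets. No paired analysis was possible because the replicate numbers follow the order of deposit and no label ties animals across groups. Depth limits the muscle genes, whose levels in most livers lie near 3 counts.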
